A study of Homo sapiens with 8 samples.

Results

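Replication-dependent histones are the core and linker histones that cells make in bulk while DNA is copied. Among the 58051 genes of the RNA-seq count table from PC3 cells, 66 protein-coding genes carried a current symbol from H1-1 to H1-6, or one beginning with H2AC, H2BC, H3C or H4C and a digit. They comprised 6 H1, 15 H2A, 19 H2B, 11 H3 and 15 H4 genes. The current annotation holds 70 genes of these names. The other 4 (H3C2, H3C3, H2AC18 and H2AC19) are in the table only under retired identifiers, and are described separately.

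PC3 is a prostate cancer cell line derived from a bone metastasis. Cells were transduced with lentivirus carrying a scrambled short hairpin (shScramble, 4 samples) or the sh2 hairpin against IER5L, a member of the immediate early response gene family (shIER5L, 4 samples). All cells had passed through puromycin selection, and a single IER5L hairpin was sequenced, so effects of that hairpin and of IER5L loss cannot be told apart. The replicates are labelled biological, and the study's methods describe 4 plates of shScramble or sh2 cells per experiment. Whether the 4 samples of a group are plates of the same experiment or come from separate experiments is not stated. The p-values measure the spread between these samples, which may be only that between plates. Total counts ran from 21512128 to 24662190 per sample. The epithelial markers KRT8, KRT18 and EPCAM were detected in all 8 samples (40.3 to 63.1, 382 to 425 and 25.7 to 30.8 CPM), KLK3 and the T cell marker CD3E were at 0, and PTPRC (at most 0.161 CPM), DCN (0.353) and COL1A1 (0.588) were near it. The endothelial marker PECAM1 read 7.24 to 10.4 CPM.

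IER5L itself served as the check of the labels. It read 3.91, 6.51, 5.62 and 3.23 CPM in the shScramble samples and 2.73, 3.03, 2.04 and 1.33 CPM in the shIER5L samples, so the groups did not overlap. The log2 fold change was −1.08 (SE 0.248, adjusted p = 0.0212, edgeR quasi-likelihood test). Exons of other genes, IER5L-AS1 among them, cover 39.2% of its counted bases, and reads there were not assigned to any gene.

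Histone genes of this class differ from nearly all other protein-coding genes in the 3' end of their mRNA. Instead of a poly(A) tail, the transcript ends a few bases after a conserved stem-loop, which is bound by SLBP, the stem-loop binding protein that guides processing, translation and decay. NPAT, a substrate of cyclin E and CDK2, switches their transcription on as cells enter S phase, and the mRNAs are destroyed when replication stops. Some of these genes can also produce longer, polyadenylated transcripts when the stem-loop is read through.

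The stem-loop was searched for in the 150 bases after the stop codon, on the coding strand, as 16 bases with a 6-base stem and a 4-base loop, at least 5 of 6 stem pairs, GG at the start, CC at the end and TT at the start of the loop. It was found in 60 of the 66 genes, and in 14 of 4272 other protein-coding genes of the same chromosomes (0.328%). The 6 without a match were H2BC10, H2BC12L, H2BC15, H2BC18, H3C6 and H4C13. The stop codon was that of the transcript with the longest coding sequence. For H2BC15 and H2BC18 this sequence has 501 and 405 bases, against 381 in H2BC12. The bases after a shorter H2B coding sequence of these 2 genes may therefore not have been searched. The forms below are shown because the 3' end decides how these mRNAs meet a poly(A) or a ribosomal-depletion protocol. Letters are the sense strand of hg38, with the stem-loop in capitals and 5 flanking bases on each side.
H1-2, the highest member, with the form shared by 34 members of the H1, H2A, H2B and H3 families (minus strand, stem-loop at chr6:26055744-26055759): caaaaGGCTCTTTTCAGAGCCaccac
H2BC12, the highest H2B gene, with the form of 9 members (minus strand, chr6:27146366-27146381): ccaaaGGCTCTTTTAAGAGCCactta
H4C2, the highest H4 gene, with the form of 10 H4 genes (minus strand, chr6:26026901-26026916): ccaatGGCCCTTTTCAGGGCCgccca
H4C12, a low H4 gene with the form of 4 H4 genes (minus strand, chr6:27831178-27831193): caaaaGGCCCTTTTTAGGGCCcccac
H2AC11, which along with H2AC15 has 5 of 6 stem pairs (plus strand, chr6:27133515-27133530): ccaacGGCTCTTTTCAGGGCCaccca
All 14 H4 genes with a match had one of the 2 H4 forms, which no gene of another family had. H2AC15 and H2AC20 had forms of their own. The 10 members with the highest level all had a stem-loop.

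Levels between genes were compared as CPM per kilobase of counted exon, where CPM relates a count to the TMM-normalized total of its sample. H1-2, a linker histone, was the highest of the 66. It read 978, 928, 938 and 979.9 CPM per kb in shScramble samples 1 to 4 and 999.7, 1007, 855 and 947 in shIER5L samples 1 to 4. Only 3 of the 16959 genes tested lay above it, and it led the next member in all 8 samples without overlap. The linker histone genes H1-4 and H1-3 also stood among the first 4. H1-4 read 604, 663, 659 and 524 CPM per kb in shScramble and 669, 688, 563 and 495 in shIER5L. H1-3 read 544, 529.7, 528 and 544 in shScramble and 562, 569.6, 492 and 511 in shIER5L. The shIER5L values spanned the shScramble values for all 3 genes, whereas the other linker genes, H1-1, H1-5 and the testis-type H1-6, had at most 14 counts in any sample.

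Among the core histones, H2BC12 led. It encodes an H2B and read 703, 769, 736 and 631 CPM per kb in shScramble and 749, 649, 623 and 610.3 in shIER5L. H2BC17 read 424, 481, 474 and 417 in shScramble and 519, 508, 429.5 and 384 in shIER5L. H2BC14 read 344, 359, 371 and 327 in shScramble and 362.5, 369, 303.5 and 287 in shIER5L. The groups overlapped for each of these H2B genes. Together the 19 H2B genes gave the largest family sum, 2502 to 2739 CPM in shScramble and 2270 to 2935 CPM in shIER5L.

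For H2A, H3 and H4, the levels of the leading genes were closer to each other. H4C2 read 506, 464.5, 499.8 and 505 CPM per kb in shScramble and 478, 526, 438 and 473 in shIER5L. H4C3 read 464, 437, 428 and 457 in shScramble and 414, 466, 369 and 395 in shIER5L. Both encode the one H4 protein that 14 of the 15 H4 genes share. H3C7, which encodes the H3 protein that 8 of the 11 H3 genes share, read 441, 491, 471 and 369 CPM per kb in shScramble and 471, 510.0, 375 and 329 in shIER5L. H2AC8 read 369.7, 348, 370.2 and 346 in shScramble and 378, 439, 323 and 299.5 in shIER5L. In both genes shIER5L replicate 2 was the highest of the 8 samples and shIER5L replicate 4 the lowest. From the second place to the tenth, neighbours in the order (H2BC12, H1-4, H1-3, H4C2, H2BC17, H3C7, H4C3, H2AC8, H2BC14) overlapped in their ranges over the 8 samples. Within samples H1-3 lay above H4C2 in 8 of 8 and H4C3 above H2AC8 in 8 of 8, whereas the other neighbours led in 5 to 7 of 8 samples, so that their order was not resolved.

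**Figure D1:**
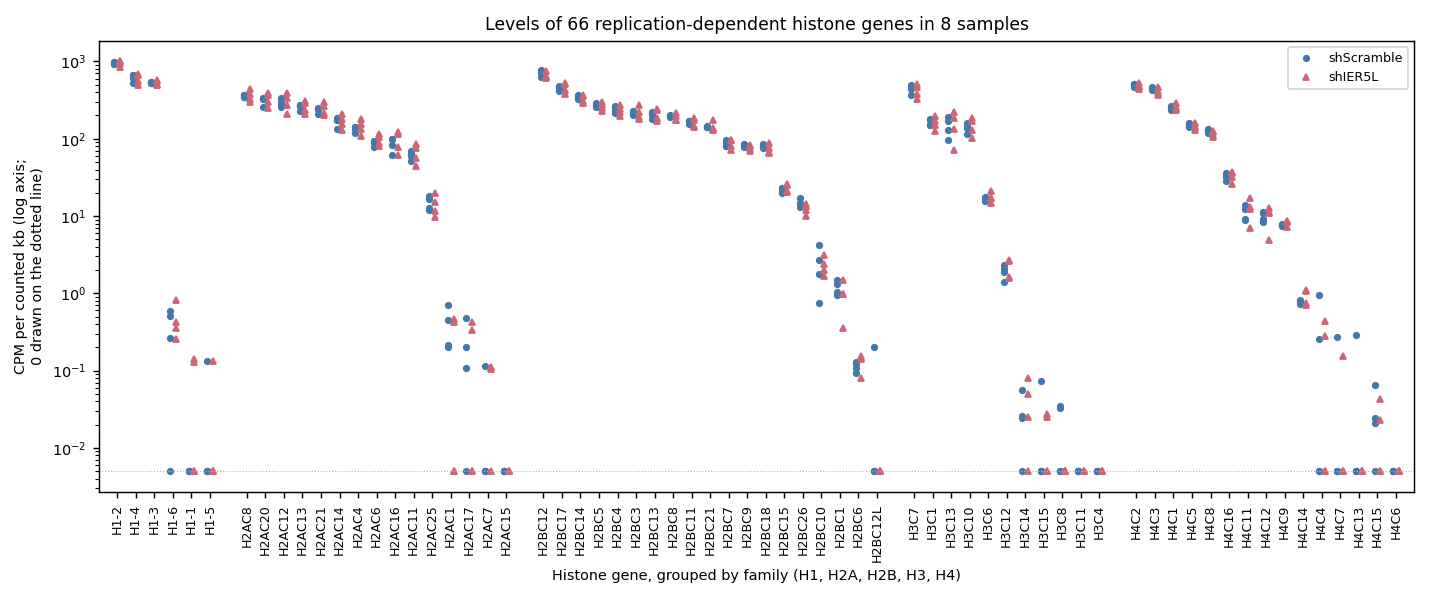
CPM per counted kilobase (log axis) of the 66 histone genes in each of 4 shScramble (circles) and 4 shIER5L samples (triangles), grouped by family and ordered by mean level. A sample with 0 counts is drawn on the dotted line; symbols of both groups overlap for every leading gene, and each family falls from its leading genes to near 0.

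The 3 H1 genes and a large part of the core histone genes belonged to the most abundant transcripts of these cells per length. Of the 46 members that passed the low-count filter, 12 were among the 100 highest genes, 31 among the 500 highest and 35 among the 1000 highest, and 43 lay above the median of all genes tested, 3.16 CPM per kb. For comparison, the replication-independent histones, whose mRNAs are in general polyadenylated and not confined to S phase, were lower per length than the leading members. H3-3B averaged 175, H2AZ1 174 and H2AZ2 55.1 CPM per kb. The counted exons of these genes include long 3' UTRs (H3-3B, 6134 bases), while those of 31 members cover coding bases only.

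At the other end, 20 members did not pass the low-count filter, with at most 14 counts in any sample. H3C4, H2AC15, H3C11 and H4C6 had 0 counts in all 8 samples. H3C4 and H2AC15 are covered over 100% of their counted bases by exons of another gene, so that the counting program discarded their reads and the 0 says nothing of their level. The exons of H2AC7 (98.0% covered) and H2AC17 (88%) had the same limit. H3C11 and H4C6 overlap no other gene, and a count of 0 in the shallowest sample allows up to 3 counts, or 0.344 and 0.453 CPM per kb, counting error only. Where both reads of a pair were counted these limits are too low, since the counts are then not independent. H1-5, H1-1, H4C13 and H4C7 also overlap no gene, and had at most 2 counts in a sample.

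Near-identical copies set another limit. H3C14 and H3C15, H4C14 and H4C15, and H4C11 and H4C12 have identical coding sequences, and the counted exons of 7 members consist for at least 80% of 100-base stretches that recur at a second histone locus. Whether a read that matches both copies was placed at either or lost was not tested. The values of these genes are therefore uncertain, low counts included. H4C11 and H4C12 averaged 11.7 and 9.99 CPM per kb, and H3C14 and H3C15 reached at most 3 counts.

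High and near-silent genes lay side by side. Of the 66 genes, 53 are on chromosome 6, 11 on chromosome 1, 1 on chromosome 12 and 1 on chromosome 21. At the far end of the chromosome 6 cluster, H2AC16 had 528 to 1082 counts, and H1-5, the next gene, had 0 to 2; they begin 2139.22 and 2140.72 kb from the start of the first gene. H3C11 and H4C13 followed with 0 to 2 counts, then H3C12 with 27 to 48 and H2AC17 with 0 to 4. H2BC17, the last of the cluster, had 3203 to 4605. Between the high genes H1-3 and H3C7, H4C6 and H4C7 had 0 to 2 counts.

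**Figure D2:**
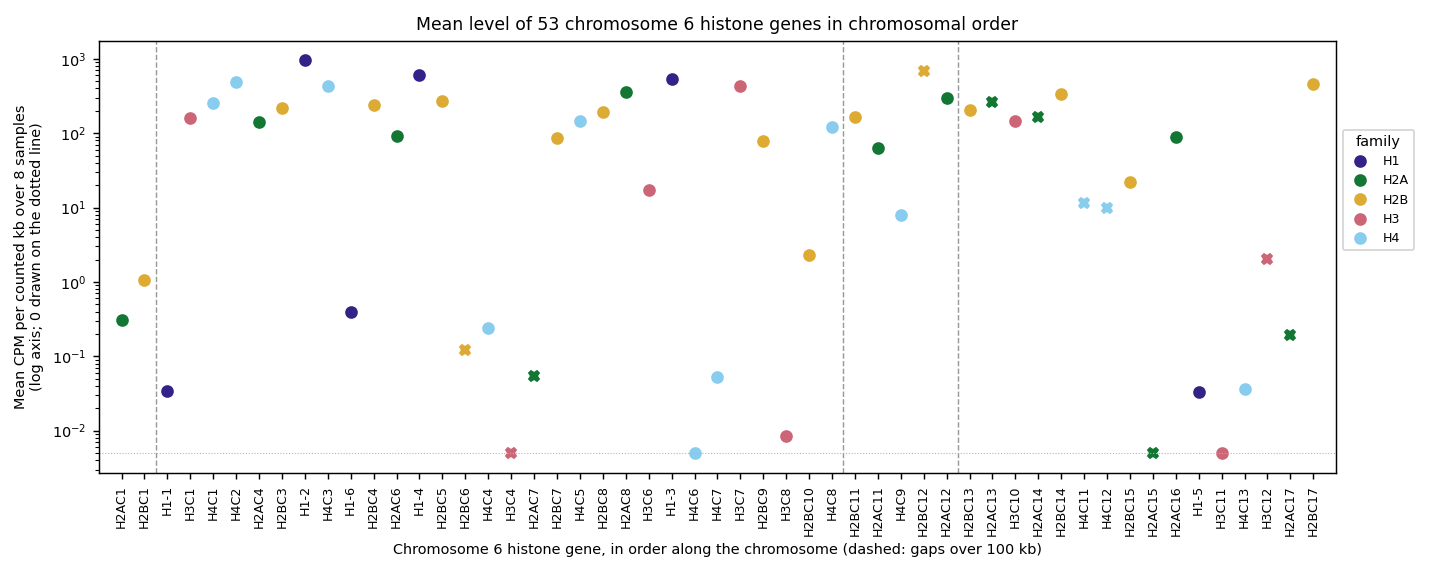
Mean CPM per counted kilobase over 8 samples (log axis) of the 53 chromosome 6 histone genes in chromosomal order, coloured by family; dashed lines mark gaps over 100 kb and crosses mark genes of which over 20% is overlapped by other exons or repeated. Genes at or near 0, such as H4C6, H4C7, H1-5 and H3C11, are interspersed with well-expressed neighbours such as H3C7 and H2BC17.

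The loci of H3C2 and H3C3, counted under retired identifiers over 411 bases each, held high levels. The identifier at H3C2 read 693, 704, 724 and 611 CPM per kb in shScramble and 705.5, 747, 606.5 and 584 in shIER5L with a mean of 672, beside 684 for H2BC12. The identifier at H3C3 read 497, 545, 538 and 453 in shScramble and 579, 656, 458 and 385 in shIER5L. Neither passed the threshold (log2 fold changes −0.05 and 0.03, 95% intervals −0.20 to 0.11 and −0.22 to 0.28, adjusted p = 0.819 and 0.937, edgeR). The highest H3 level of the table thus stood outside the 66 genes, whose best H3 gene, H3C7, averaged 432 CPM per kb. At H2AC18 and H2AC19 the identifiers had 0 to 5 counts. They lie on chromosome 1 between H3C14 and H3C15, whose counted exons consist for 100% of repeated stretches. Repeats were not measured for these identifiers, so their low counts do not show that the genes are silent.

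The sources disagree on the library kit: the sample records name a stranded mRNA kit, which selects poly(A) tails, and the study's methods name a total RNA kit with ribosomal depletion. Because all 8 samples were made alike, level and kit cannot be told apart, and gene counts hold no read positions by which a tailed form and a stem-loop form of a gene could be separated. The values that touch the question are the following. Members summed to 0.580% to 0.775% of all counts per sample. Of the 10 highest members, 10 had no annotated or counted exon reaching more than 300 bases past the stop codon, the mark used here for a longer, possibly polyadenylated transcript.

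Such longer transcripts were annotated or counted for 24 members, with a median of 70.6 CPM per kb (0.00855 to 268), and not for the other 42, with a median of 115 (0 to 954). Over the length of the shortest coding transcript instead of the counted exons, the medians were 211 for the 24 and 88.9 for the 42, and 4 of the 24 entered the 10 highest: H2BC5, H2BC8, H4C5 and H4C8. The order of the 2 classes therefore depended on the length used, and which 3' end gave the reads was not tested. H2BC21, whose shortest coding transcript is itself long (2224 bases), averaged 143 CPM per kb.

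RNAs made by RNA polymerase III, and small nucleolar or Cajal body RNAs, carry no poly(A) tail and served as a second view. RN7SL2, the RNA of the signal recognition particle, had 9777 to 12127 counts over 300 bases, a mean of 1512 CPM per kb that lay above every histone gene. It has near-identical copies in the genome, so reads may belong to either. SNORA73B, a small nucleolar RNA, had 896 to 1199 counts over 204 bases, a mean of 217 CPM per kb. SCARNA13 had 256 to 310 counts, SNORD3A 52 to 77, TERC, the telomerase RNA, 6 to 9 and SCARNA10 0 to 2. Exons of another identifier cover 81.0% of TERC, 75.2% of SCARNA10 and 46.2% of SCARNA13, and reads there were discarded, so these counts are not full levels. RN7SK, RN7SL1, RMRP, RPPH1 and SCARNA2 were at 0 in all samples, and each of these 5 is covered over 100% by exons of a second identifier, so their 0 carries no information on the kit. The 37 mitochondrial genes were likewise at 0 in every sample, although their mRNAs are abundant in every cell. Reads were thus counted at some genes of RNAs without a tail, as at histone genes. Whether these reads came from untailed transcripts was not tested, and the share of each RNA that the protocol kept was not measured.

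The comparison of shIER5L with shScramble asked whether silencing IER5L altered histone mRNA. In the edgeR test 0 of 46 members passed an adjusted p of 0.05, beside 3.93% of all genes tested (666 of 16959). An unadjusted p under 0.05 was reached by 1 member, beside 2792 of the 16959 genes. Calls that also moved by 0.5 or more on the log2 scale made up 0.790% of all genes tested. DESeq2 and limma voom also called 0 of 46, beside 947 and 667 of 16959 genes in all. Each had 2 members at an unadjusted p under 0.05, beside 2586 of 16959 genes with DESeq2. Of the 46, 22 lay below 0 and 24 above, with a median log2 fold change of 0.0005 against 0.002 over all genes.

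The intervals show how far a difference could have escaped. The 95% interval lay within ±0.5 on the log2 scale for 39 of the 46, and within ±0.25 for 23. For H1-2 it ran from −0.11 to 0.10, for H4C3 from −0.25 to 0.01 and for H4C8, another H4 gene, from −0.24 to 0.00066. The precision differed among members, with the 95% interval of H2BC10 running from −0.90 to 0.80, and a missed threshold does not show equal levels.

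The 4 tested members with the largest estimates had low levels, H2BC26 with a mean of 13.7 CPM per kb being the highest of them. H2BC26, an H2B gene on chromosome 1, read 14.5, 15, 17.4 and 13.1 CPM per kb in shScramble and 13.7, 14.4, 11.9 and 9.97 in shIER5L, overlapping. Its log2 fold change was −0.26 (95% interval −0.49 to −0.03, adjusted p = 0.221, edgeR). H4C14 read 0.779, 0.721, 0.792 and 0.812 in shScramble and 1.08, 0.717, 1.11 and 0.755 in shIER5L (log2 fold change 0.24, −0.23 to 0.70, adjusted p = 0.664). It shares its coding sequence with H4C15, which had at most 3 counts.

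H3C12 and H4C11 were similarly imprecise. H3C12 read 1.89, 2.07, 1.40 and 2.31 CPM per kb in shScramble and 2.73, 2.60, 1.56 and 1.65 in shIER5L (log2 fold change 0.16, −0.37 to 0.69), with 44.6% of its counted bases covered by another gene. H4C11 read 8.97, 13.7, 12.3 and 9.25 in shScramble and 13, 16.9, 12.2 and 7.10 in shIER5L (0.15, −0.31 to 0.61). Their adjusted p were 0.827 and 0.801 (edgeR), and their groups overlapped.

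By family, the 3 H1 genes tested lay between −0.02 and −0.01, a median of −0.0077. The 11 H2A genes had a median of 0.04 (9 above 0), the 16 H2B genes −0.04 (11 below 0), the 6 H3 genes 0.07 and the 10 H4 genes 0.02. With the GC trend of each sample removed the medians were 0.03 for H1, whose sign turned, 0.09 for H2A, −0.0060 for H2B, 0.07 for H3 and 0.03 for H4. Summed over all 66, the level was 6836, 6969, 7033 and 6384 CPM in shScramble and 7125, 7705, 6147 and 5867 CPM in shIER5L, with means ± SD of 6805 ± 293 and 6711 ± 854 (n = 4 each) and a ratio of 0.986. The highest and the lowest of the 8 sums both belonged to shIER5L. Leaving out shIER5L replicate 2 brought 2 members, H2BC18 (−0.22, adjusted p = 0.0420) and H4C3 (−0.19, adjusted p = 0.0487, edgeR), past the threshold. In that fit 756 of 17304 genes were called and 40 of 47 members lay below 0. Leaving out shIER5L replicate 4 left 12 of 47 members below 0 and 0 called, beside 553 of 17396 genes called.

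**Figure D3:**
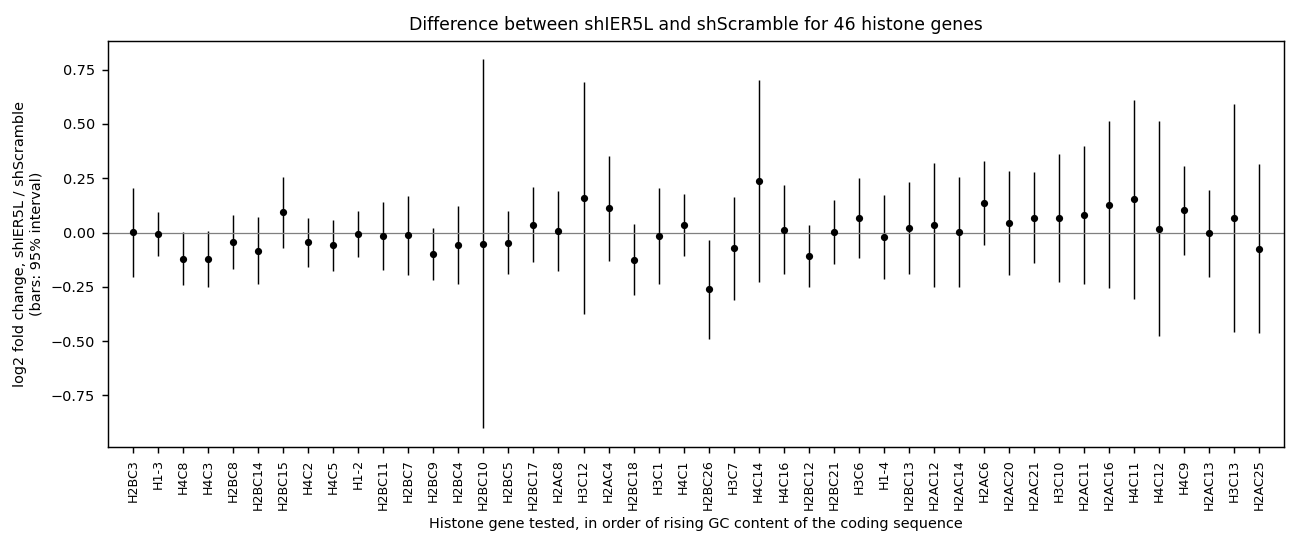
Log2 fold change of shIER5L over shScramble with its 95% interval for the 46 histone genes tested, in order of rising GC content of the coding sequence. Intervals include 0 for 45 of the 46, all but H2BC26, and the widest belongs to H2BC10, with 6 to 36 counts.

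Members moved together from sample to sample. Of the 46 tested, 38 had their highest shIER5L value in replicate 2 and 36 their lowest in replicate 4, and 32 had their lowest shScramble value in replicate 4. The size of this spread differed among genes with the GC content of the coding sequence, which ran from 48.2% to 67.7% over the 66. H3C13, chosen here after its values were seen for having the widest spread among members with a mean of at least 100 counts, has 67.4% GC and read 130, 188, 168 and 96.7 CPM per kb in shScramble and 184, 221, 134 and 72.0 in shIER5L, a 3.06-fold range. H1-3, with 54.4% GC, spanned a 1.16-fold range and H1-2 a 1.18-fold range.

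Across the 42 tested members with a mean of at least 100 counts, the SD of log2(CPM + 0.5) within groups had a median of 0.208 for the 25 genes with at least 60% GC and 0.131 for the 17 with less. Pearson's r between GC content and SD was 0.72 and Spearman's rho 0.70, given as a description over genes that share the 8 libraries and whose GC content also differs by family (median over tested members 62.8% for H2A and 57.5% for H1). H4C9 (64.1% coding GC, SD 0.0836) had no wide spread. Its coding sequence makes up 312 of its 1294 counted bases, which have 46.75% GC. H2AC11 and H3C10, with coding GC of 63.6% and 63.5%, also have lower GC over their counted bases (46.8% and 49.07%). Their spreads were wide (SD 0.334 and 0.308). Whether the GC content of the counted bases bears on the spread was not tested.

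**Figure D4:**
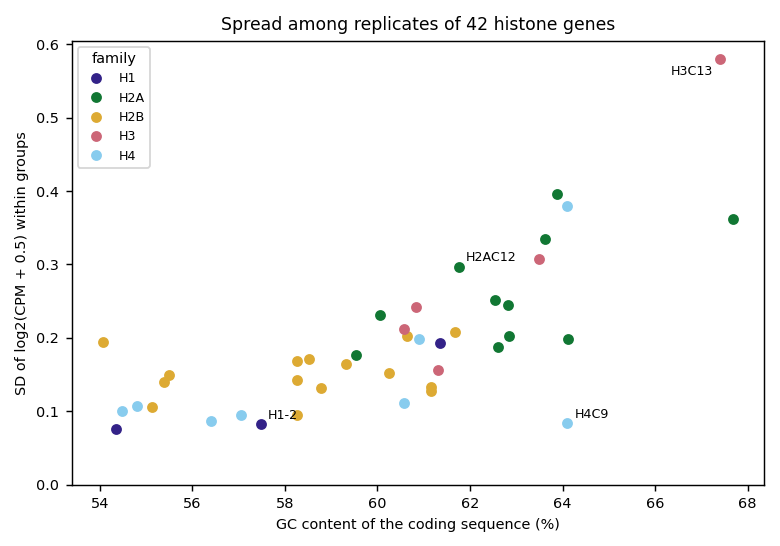
SD of log2(CPM + 0.5) within the 2 groups of 4 samples against the GC content of the coding sequence, for the 42 histone genes with a mean of at least 100 counts, coloured by family. The 17 genes below 60% GC all lie under 0.2, and H3C13 reaches 0.580.

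Other genes moved in the same samples. They were grouped by the GC content of the longest annotated transcript, and members by that of the coding sequence. The 349 non-histone genes with over 65% GC had median deviations from their 8-sample mean of −0.10, 0.21, 0.26 and −0.21 in shScramble and 0.18, 0.24, −0.14 and −0.39 in shIER5L (log2). For the 1234 with over 60% and up to 65% the deviations were smaller: −0.07, 0.11, 0.17 and −0.08 in shScramble and 0.12, 0.15, −0.13 and −0.23 in shIER5L. Members with at least 60% coding GC summed to 3036, 3267, 3263 and 2685 CPM in shScramble and 3322, 3636, 2799 and 2478 CPM in shIER5L. These series share their high samples (replicates 2 and 3 of shScramble, 1 and 2 of shIER5L) and their lowest, shIER5L replicate 4. Members with less than 60% GC summed to 3798, 3700, 3769 and 3698 CPM in shScramble, a flat series, and to 3800, 4068, 3347 and 3387 CPM in shIER5L. When the GC trend of each sample was removed, a choice made after the data were seen, 0 of 46 members were called beside 8.0% of all genes, 15 lay below 0, the median was 0.04 and the median standard error fell from 0.0931 to 0.0637. What set the GC trend of the libraries was not tested.

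Replication-dependent histone mRNA marks S phase, so its level was set beside S phase genes and the machinery that makes the mRNA. The 43 genes of an S phase list, which code for replication factors and their regulators, were all tested. Among them 35 lay below 0 with a median of −0.10, beside 8375 of all 16959 genes below 0 with a median of 0.002. At an adjusted p under 0.05, 3 were lower in shIER5L, beside 1.46% of all genes called lower, and 0 were higher. MCM4, a subunit of the replicative helicase, read 262, 265, 262.5 and 268 CPM in shScramble and 231, 209, 234 and 233.5 in shIER5L (log2 fold change −0.22, SE 0.0439, adjusted p = 0.00882, edgeR).

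CLSPN, claspin of the replication checkpoint, read 117, 108, 103.5 and 108 CPM in shScramble and 97.7, 86.0, 96.7 and 94.6 in shIER5L (−0.22, SE 0.0550, adjusted p = 0.0328). UNG, uracil-DNA glycosylase, read 163, 152, 154 and 151 in shScramble and 137, 130.4, 136 and 145 in shIER5L (−0.18, SE 0.0467, adjusted p = 0.0466, edgeR). The groups did not overlap for any of the 3. The count of 3 fell to 1 when any of 6 samples was left out (shScramble replicates 1 to 4 and shIER5L replicates 2 and 3), MCM4 being the 1 gene left in each case. Calls over all genes, 666 with all samples, were 558, 341, 305 and 434 without shScramble replicates 1 to 4. They were 756 and 358 without shIER5L replicates 2 and 3. With a sample left out the log2 fold changes stayed between −0.24 and −0.18 for CLSPN and between −0.20 and −0.15 for UNG. The count rose to 5 with DESeq2 (947 of 16959 genes called in all), to 6 without the low-count filter (903 of 35729) and to 11 with the GC trend removed (1357 of 16959).

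The histone and S phase sums ordered the samples differently. The S phase list summed to 5722, 5477, 5524 and 5509 CPM in shScramble and 5336, 4995, 5448 and 5356 CPM in shIER5L, so that every shIER5L sum was below every shScramble sum. The sample with the highest histone sum, shIER5L replicate 2, had the lowest S phase sum. The 12 replication-independent histones summed to 2509 to 2684 CPM in shScramble and 2521 to 2624 CPM in shIER5L, a 1.07-fold range over the 8 samples against 1.31-fold for the members. RNA-seq of whole cultures cannot tell fewer cells in S phase from less mRNA per such cell.

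**Figure D5:**
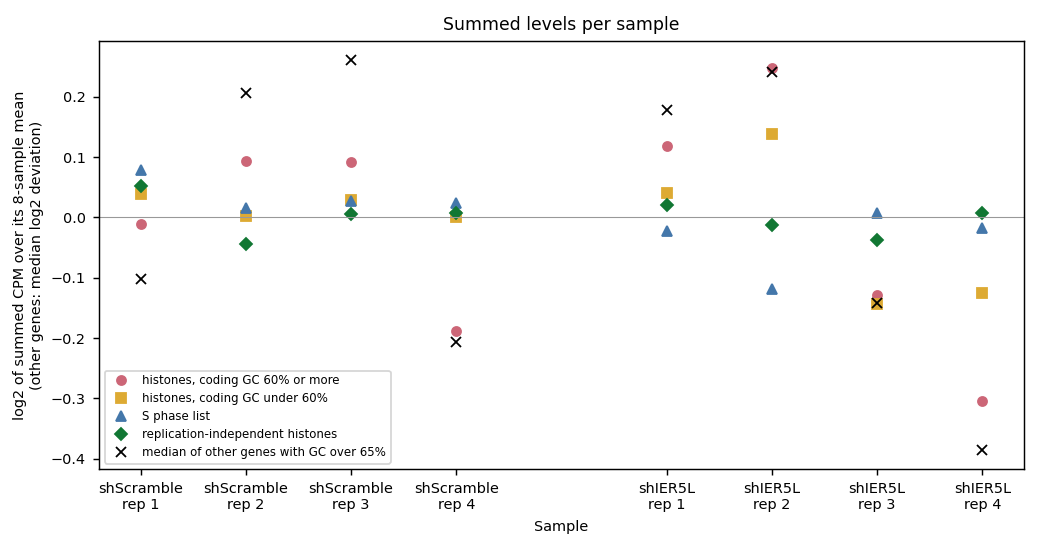
Log2 of the summed CPM over its 8-sample mean, per sample, for tested histone genes with at least 60% coding GC, those with less, the S phase list and the replication-independent histones. The median log2 deviation of 349 other genes with over 65% GC in their longest annotated transcript is also drawn. GC-rich histones are highest in shIER5L replicate 2 (3636 CPM) and lowest in shIER5L replicate 4 (2478 CPM), while the S phase list is lowest in shIER5L replicate 2.

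Of the 30 genes of the histone mRNA machinery, 0 were called by edgeR or DESeq2, against the 3.93% of all genes called by edgeR. An unadjusted p under 0.05 was reached by 2 with edgeR and 3 with DESeq2, beside 2792 and 2586 of all 16959 genes. Their median was −0.02 with 17 below 0. NPAT, the activator of histone transcription, read 69.1, 69.2, 67.4 and 69.2 CPM in shScramble and 66.4, 72.1, 80.7 and 77.4 in shIER5L (log2 fold change 0.11, 95% interval −0.02 to 0.24, adjusted p = 0.400, edgeR). SLBP read 163, 149.5, 152 and 158 in shScramble and 147, 137, 157 and 163 in shIER5L (−0.04, −0.16 to 0.08, adjusted p = 0.791). For both genes the groups overlapped. The 7 transcription genes had a median of −0.08, the 12 processing genes 0.02, the 6 decay genes 0.0039 and the 5 chaperones −0.07.

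Of the 12 replication-independent histones 11 were tested, H3-5 being at most 0.265 CPM. With edgeR or DESeq2 0 were called, beside 3.93% of all genes called by edgeR. In each, 1 had an unadjusted p under 0.05, beside 2792 (edgeR) and 2586 (DESeq2) of all 16959 genes. The difference from the replication-dependent genes was not tested. Their median was −0.0034, beside 0.0005 for the replication-dependent genes.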

How the data were processed

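The deposited values are raw counts per gene. The authors aligned reads to hg38 with STAR 2.7.5c, removed PCR duplicates with SAMtools 1.15 and counted with featureCounts 2.0.3 on primary alignments, without a strand option and with reads over 2 genes discarded. Both reads of a pair were apparently counted, since a median of 65.6% of counts from 1 to 20 were even. Removing duplicates compresses the highest short genes, and the size of that effect was not measured. Of 58051 identifiers 56948 matched GENCODE v44, from which symbols, exons and stem-loops were taken.

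The 16959 genes kept by filterByExpr were tested with edgeR 4.0.16 (TMM, factors 0.988 to 1.02, quasi-likelihood, Benjamini-Hochberg over all genes, threshold 0.05) in R 4.3.3, with the 2 groups of 4 samples as labelled. Scripts were tested on simulated data. Alternatives were RLE scaling, no low-count filter, protein-coding genes only, DESeq2 1.42.0, limma 3.58.1 voom, a replicate block and each sample left out. GC trend removal (loess span 0.3, GC content of the longest annotated transcript) was added after seeing the data. Named genes were the 10 members highest per kb, those with the largest changes, called genes of the lists, NPAT and SLBP; others are named as exceptions. The members and lists were chosen with earlier results of these data known. Some genes of the marker and replication-independent lists are not reported here by name.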

Additional observations from a re-analysis of the deposited data

Results flagged for a closer look

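Among 98 groups of 4 samples tested for a value apart from the rest by Dixon's criterion, 4 were flagged, where chance flags about 1 in 20 groups. H2AC13 (115.3 CPM, others 135.4 to 138.0) and H2AC20 (101.7 CPM, others 128.4 to 132.1) were low in shScramble replicate 4. H2BC21 was high in shIER5L replicate 2 (378.4 CPM, others 288.7 to 301.5). H4C2 was low in shScramble replicate 2 (203.4 CPM, others 218.9 to 221.6).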

How the results depend on the processing

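The ratio of summed histone levels stayed between 0.937 and 1.03 over the alternatives that give one, and the number of histone genes called was 0 except for 1 without the low-count filter (H2BC26, −0.28, adjusted p = 0.0264, edgeR) and a range of 0 to 2 when single samples were left out. S phase calls were 6 without the filter (903 of 35729 genes in all), 5 with DESeq2 (947 of 16959) and 11 with the GC trend removed (1357 of 16959). With a sample left out they were 1 to 3, beside 305 to 756 genes called in all. Machinery calls were 1 with the GC trend removed (CCNE2) and replication-independent calls 1 without the filter. The IER5L log2 fold change ranged from −1.25 to −0.90 with a sample left out (adjusted p up to 0.0937). By shortest transcript, 6 of the 10 highest genes remained. The causes were not tested. Among the named genes, signs turned under these settings: with the GC trend removed H1-2 was 0.041, H1-3 0.029 and H1-4 0.031, and H2AC8 was −0.0026 (RLE), −0.0081 (no filter), −0.0063 (protein-coding only), −0.0027 (DESeq2), −0.0085 (voom) and −0.0089 (replicate block). With a sample left out, ranges were −0.033 to 0.036 for H1-2, −0.040 to 0.023 for H1-3, −0.089 to 0.061 for H1-4, −0.10 to 0.082 for H2AC8, −0.028 to 0.11 for H2BC17, −0.18 to 0.026 for H3C7, −0.040 to 0.34 for H4C11 and −0.079 to 0.0045 for SLBP. The deviations of same-numbered samples correlated at −0.05 to 0.10 for numbers 1 to 3 and at 0.14 for number 4, whose samples were each other's best match; not every sample matched its own number best, and the numbers were not taken as pairs. The replicate block gave 655 calls in all, 0 histone genes (4 at an unadjusted p under 0.05) and UNG at adjusted p = 0.0635. Depth limits genes under 60 counts, 23 of the 66.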
